A study of Mus musculus with 18 samples.

Results

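The visual cycle is the chain of enzymes and carrier proteins that returns all-trans-retinal, released from bleached visual pigment, to 11-cis-retinal. It was described here through 9 genes, Rpe65, Lrat, Rdh5, Rlbp1, Rdh10, Rdh11, Rdh8, Rdh12 and Rbp3, picked by symbol from 23420 gene symbols in the count tables. All 9 were present and all 9 passed the filter on low counts that left 15196 genes for testing. The RNA came from whole retinas of BALB/cJ mice, an albino strain known to carry the light-sensitive form of the RPE65 enzyme. Young adults of both sexes were used, according to the study's methods. There were 3 mice in each of 3 groups. Naïve mice had no light exposure, and the sources used here do not state whether they were injected. Vehicle mice were dark adapted, exposed with dilated pupils to 15000 lux of white light for 1 h and injected daily with DMSO, and TD139 mice had the same light and daily injections of the galectin-3 inhibitor TD139 at 15 mg/kg in DMSO. Injections began on the day before the light, and retinas were taken 4 days after it. Because DMSO is not stated for the naïve mice, light and DMSO cannot be told apart when vehicle mice are compared with naïve mice. By the study's methods, TD139 and vehicle mice differ by the inhibitor. No litter or preparation batch of single mice is given in the sources used here.

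The cycle runs between neighbouring cell layers. In photoreceptors, RDH8 of the outer segment and RDH12 of the inner segment reduce the released all-trans-retinal to retinol, and RBP3, an abundant secreted retinoid carrier, fills the matrix between photoreceptors and the pigment epithelium. In the pigment epithelium, LRAT esterifies the retinol, RPE65 turns the ester into 11-cis-retinol, and RDH5 oxidises this to 11-cis-retinal. RDH10 and RDH11 can share that last step, and RDH11 is also made by photoreceptors. Rdh11 is counted below with the photoreceptor genes Rdh8, Rdh12 and Rbp3, a grouping made with its values known. RLBP1 binds 11-cis retinoids in the pigment epithelium and in Müller glia, the radial support cells of the retina. RNA of Rpe65, Lrat and Rdh5 in a dissected retina can therefore include pigment epithelium that stayed attached to it, so marker values for that layer are given beside these genes. In bulk RNA, fewer cells of a type and less RNA per cell cannot be told apart.

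The 9 genes lie on 7 mouse chromosomes, and only Rdh11 and Rdh12 are neighbours, on opposite strands of chromosome 12 with 16620 bases between them (GRCm38, GENCODE annotation). Rdh11 spans chr12:79174337-79192293 on the minus strand and Rdh12 chr12:79208914-79222665 on the plus strand. On the plus strand are also Rpe65 at chr3:159599175-159625321, Rbp3 at chr14:33954003-33964216, Rdh8 at chr9:20818503-20826117 and Rdh10 at chr1:16105774-16133734, and on the minus strand Lrat at chr3:82892579-82903973, Rlbp1 at chr7:79374870-79387048 and Rdh5 at chr10:128913593-128922888. Rpe65, made in the pigment epithelium, and Rbp3, made in photoreceptors, stand for either end of the cycle and changed in opposite directions with TD139, so the 250 bases before their RefSeq starts are shown. The RefSeq start of Rpe65 lies a few bases inside the GENCODE gene given above. Capitals mark 6-base words searched on both strands, TAATCC, the core bound by the photoreceptor and pigment epithelium factors CRX and OTX2, here written GGATTA from the opposite strand, and CATGTG, part of the site bound by the pigment cell factor MITF, or CACATG from the opposite strand.
Rpe65, chr3:159598931-159599180, plus strand: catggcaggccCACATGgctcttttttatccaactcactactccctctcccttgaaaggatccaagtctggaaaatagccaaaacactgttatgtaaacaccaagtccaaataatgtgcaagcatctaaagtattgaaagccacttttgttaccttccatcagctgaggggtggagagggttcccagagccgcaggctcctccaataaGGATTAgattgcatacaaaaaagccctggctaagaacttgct
Rbp3, chr14:33953753-33954002, plus strand: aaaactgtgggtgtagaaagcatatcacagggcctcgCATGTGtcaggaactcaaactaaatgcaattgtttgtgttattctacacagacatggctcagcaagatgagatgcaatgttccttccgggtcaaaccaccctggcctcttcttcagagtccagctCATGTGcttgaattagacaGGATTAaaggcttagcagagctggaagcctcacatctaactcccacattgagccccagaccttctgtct

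Both windows held both words. In Rpe65 the TAATCC match began at base -42 and the CATGTG match at base -239 from the RefSeq start, and in Rbp3 they began at -69 and at -213 and -88. RefSeq (GRCm38.p6) gave windows for 8 of the 9 genes, with 2 for Rdh11 and no entry for Rdh10, and 3 of these 9 windows held either word, the third being Rlbp1 with CATGTG on the opposite strand at -124. Of all 32851 mouse promoter windows of this length, 6.25% held TAATCC and 12.3% held CATGTG. A match is a property of the letters and was not tied to the expression values.

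Depth was 26171887 to 30201517 reads on genes per mouse, so that 3 reads, the limit that a count of 0 allows, correspond to 0.101 to 0.119 CPM, the unit used here, in which each count is scaled to the same total of reads on genes after TMM normalization. The 9 genes had from 124 counts (Lrat in naïve mouse 1) to 138463 counts (Rbp3 in naïve mouse 3). Reads outside annotated genes made up 19.1% to 19.9% of the counted reads in naïve, 16.5% to 19.4% in vehicle and 21.3% to 22.8% in TD139 mice, and their part in the results was not tested. The tissue showed its defining rod genes, with Gnat1 at a mean of 14567 CPM and Sag at 9764 CPM over the 9 mice. Of 10 cone markers, led by Gnb3, Opn1sw and Arr3, edgeR called none in vehicle against naïve mice, where 2 had an unadjusted p below 0.05 and DESeq2 called 1. In TD139 against vehicle mice 1 rose and 1 fell (10% each, beside 17.2% and 16.2% of all tested genes). Of 12 microglia markers, with C1qa and C1qc among the most abundant, edgeR called 6 higher in vehicle than in naïve mice (50%, beside 4.91% of all tested genes). All 12 had an unadjusted p below 0.05 there, and DESeq2 called 11. With TD139 against vehicle, 9 fell (75%, beside 16.2%), 11 had an unadjusted p below 0.05 and DESeq2 called 11. Per kilobase of the longest transcript, Rbp3 stood first with a mean of 734 CPM per kilobase over the 9 mice. Rlbp1 followed at 274 and Rdh12 at 212, and their ranges over the mice overlapped. Rdh8 came next at 64.0, and its lowest mouse (31.6) fell below the highest of Rdh5 (36.8). Rdh5 at 17.8, Rdh10 at 15.2, Rpe65 at 13.5 and Rdh11 at 12.85 CPM per kilobase overlapped one another, and Lrat was lowest at 1.70. The carriers RBP3 and RLBP1 thus had far more RNA per length than the pigment epithelium enzymes in these retinas.

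The first comparison asked how light damage under vehicle treatment altered the visual cycle genes relative to naïve retinas. The 4 photoreceptor genes were lower in every vehicle mouse than in every naïve mouse, and 2 of them, Rdh12 and Rbp3, fell past the threshold of an adjusted p of 0.05 in edgeR's quasi-likelihood test over all tested genes. Over all tested genes, 2.89% of genes fell and 4.91% rose in this comparison, and 33.3% did not overlap between the groups, against 4 of the 9 genes (44.4%). The 5 genes of the pigment epithelium and Müller glia had higher means in vehicle mice, and none passed the edgeR test.

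Rdh12 was measured at 819, 656 and 627 CPM in naïve mice 1, 2 and 3, and at 403, 523 and 359 CPM in vehicle mice. It was 1.64-fold lower (log2 fold change -0.71, SE 0.185, edgeR adjusted p = 0.0429). Vehicle mouse 2 lay closest to the naïve range and still below it. Rbp3 was measured at 4014, 4169 and 5075 CPM in naïve mice and 3043, 3291 and 2735 CPM in vehicle mice. It was 1.46-fold lower (log2 -0.55, SE 0.12, edgeR adjusted p = 0.0284), and all naïve mice lay above all vehicle mice. Rdh8 had 64.9, 108 and 135 CPM in naïve mice and 54.0, 61.5 and 44.5 CPM in vehicle mice, with log2 -0.94 (SE 0.275, edgeR adjusted p = 0.0677). Naïve mouse 1 was low for this gene, just above the highest vehicle mouse. Rdh11 had 50.2, 45.2 and 44.2 CPM in naïve and 28.9, 37.5 and 27.0 CPM in vehicle mice, with log2 -0.58 (SE 0.17, edgeR adjusted p = 0.0551). Neither Rdh8 nor Rdh11 passed the edgeR test, although their groups did not overlap, and DESeq2 placed both past it (adjusted p = 0.002745 for Rdh8 and 0.0167 for Rdh11).

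**Figure D1:**
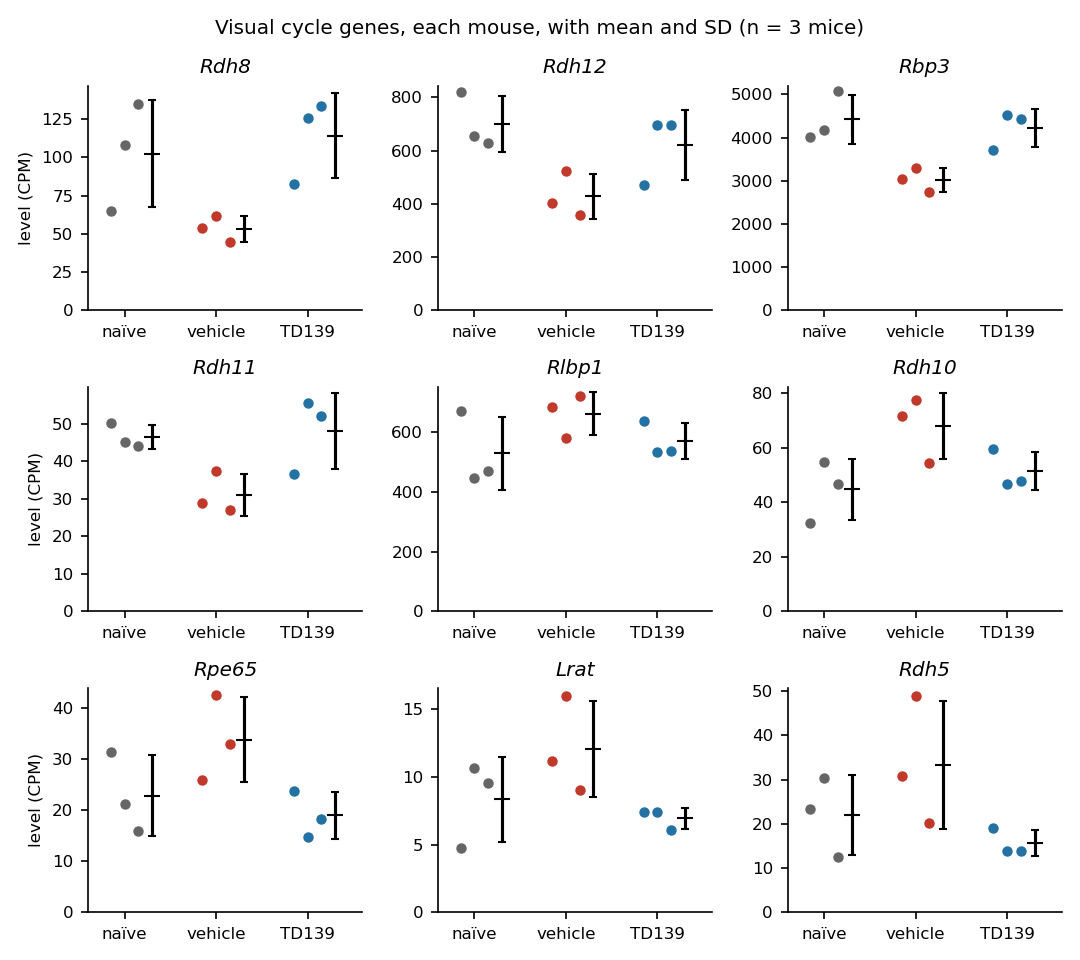
Levels of the 9 visual cycle genes in CPM (y axis, from 0) in each of 3 naïve, 3 vehicle and 3 TD139 mice (points, in the order of mouse 1, 2 and 3), with the mean and SD (bars, n = 3). The vehicle mice lie below all naïve mice for Rdh8, Rdh12, Rbp3 and Rdh11, and the vehicle means are the highest of the 3 groups for the other 5 genes.

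Among the genes of the support cells, Rdh10, a retinol dehydrogenase of the pigment epithelium and Müller glia, had the smallest p, at 32.5, 54.6 and 46.8 CPM in naïve mice and 71.5, 77.6 and 54.4 CPM in vehicle mice (log2 0.60, SE 0.19, edgeR adjusted p = 0.0775, DESeq2 adjusted p = 0.0209). Vehicle mouse 3 lay just under the highest naïve mouse. Rpe65 had 31.4, 21.2 and 15.8 CPM in naïve mice and 25.9, 42.5 and 33.0 CPM in vehicle mice (log2 0.57, SE 0.27, edgeR adjusted p = 0.208). Lrat, Rdh5 and Rlbp1 had log2 fold changes of 0.53, 0.59 and 0.32, with edgeR adjusted p of 0.261, 0.341 and 0.205, and their groups overlapped. With 1 mouse left out, these values ran from 0.262 to 0.761, 0.207 to 0.902 and 0.230 to 0.543. In all, 5 of the 9 genes had an unadjusted p below 0.05. The median log2 fold change of the 9 was 0.32, beside -0.0018 over all tested genes. With 5 positive and 4 negative values it is that of Rlbp1 and does not describe a shift of the set.

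The calls depended on single mice, and none of the 9 genes was called without naïve mouse 1, 2 or 3 or vehicle mouse 1 or 3, 1 without TD139 mouse 2 or 3, 3 without vehicle mouse 2 and 4 without TD139 mouse 1. Calls over all tested genes fell in the fits with none of the 9 called, from 1185 with all mice to 91, 1 and 217 without naïve mouse 1, 2 and 3 and to 249 and 84 without vehicle mouse 1 and 3. They numbered 978 and 901 without TD139 mouse 2 and 3, 973 without vehicle mouse 2 and 1982 without TD139 mouse 1. Rbp3 was no longer called without any 1 of naïve mouse 1, 2 or 3 or vehicle mouse 1 or 3, with adjusted p from 0.0562 to 0.0906. Of the fits that left out 1 mouse, Rdh12 stayed called only without vehicle mouse 2 (adjusted p = 0.0287) or without TD139 mouse 1 (adjusted p = 0.0124), the TD139 mice entering through the shared estimate of spread, and reached an adjusted p of 0.134 at most. It also lost the call with replicate number as a block in the fit (adjusted p = 0.0598). The log2 fold changes kept their sign in all 19 alternative fits for each of the 9 genes.

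Rod markers were lower in the same mice. The summed level of 17 rod markers was 95993 to 111095 CPM in naïve and 55990 to 78627 CPM in vehicle mice. Of the 17, 11 were called lower (64.7%, beside 2.89% of all tested genes). The median log2 fold change of the 17 was -0.59, beside -0.94 to -0.55 for the 4 photoreceptor genes here. The 10 cone markers summed to 1791 to 2535 CPM in naïve and 2107 to 2223 CPM in vehicle mice, which overlapped. Relative to the rod marker sum, Rbp3 was 3.61%, 4.12% and 5.29% in naïve mice and 4.42%, 4.19% and 4.88% in vehicle mice, so that the groups overlapped. Rdh12 also overlapped as a share of the rod sum, at 0.738%, 0.648% and 0.653% against 0.586%, 0.666% and 0.641%. The part of the lower rod marker levels in these values was not tested.

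The second comparison asked whether TD139 altered the visual cycle genes in light-damaged retinas. All 4 photoreceptor genes rose with TD139, and Rpe65 fell. Over all tested genes, 17.2% of genes rose, 16.2% fell and 51.5% did not overlap between these groups, against 4 of 9 genes (44.4%) that rose, 1 that fell and 5 of 9 (55.6%) that did not overlap. The share that rose was above the background, and the share without overlap was near it.

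Rdh8 showed the largest rise of the 9, with 82.3, 126 and 134 CPM in TD139 mice 1, 2 and 3 above 54.0, 61.5 and 44.5 CPM in vehicle mice. It was 2.14-fold higher (log2 1.10, SE 0.275, edgeR adjusted p = 0.0174), and the log2 fold change was 1.70 (adjusted p = 0.0279) when counts were corrected for transcript length and GC content. Rbp3 reached 3717, 4522 and 4421 CPM in TD139 mice and was 1.40-fold higher (log2 0.48, SE 0.12, edgeR adjusted p = 0.0148). Every TD139 mouse lay above every vehicle mouse for these genes. Rdh11 reached 36.6, 55.6 and 52.2 CPM (log2 0.63, SE 0.17, edgeR adjusted p = 0.0161). Rdh12 reached 470, 696 and 697 CPM (log2 0.54, SE 0.18, edgeR adjusted p = 0.0452). For Rdh11 and Rdh12, TD139 mouse 1 fell within the vehicle range and the other two lay above it. TD139 mouse 1 was the lowest of its group for all 4 photoreceptor genes, and its summed level of the microglia markers was 185 CPM beside 58.7 and 49.7 CPM in TD139 mice 2 and 3. The part of this mouse's microglial content in its values was not tested.

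Rpe65, the isomerase of the cycle, had 23.8, 14.8 and 18.3 CPM in TD139 mice, below 25.9, 42.5 and 33.0 CPM in vehicle mice. It was 1.78-fold lower (log2 -0.83, SE 0.27, edgeR adjusted p = 0.0408). Its lowest vehicle mouse and its highest TD139 mouse were close together. Rdh5, which makes 11-cis-retinal, had 19.1, 14.0 and 13.8 CPM with TD139 and 30.9, 48.9 and 20.1 CPM with vehicle (log2 -1.09, SE 0.38, edgeR adjusted p = 0.0563). Lrat, which forms the retinyl ester that RPE65 uses, had 7.41, 7.38 and 6.05 CPM with TD139 and 11.2, 15.97 and 9.04 CPM with vehicle (log2 -0.79, SE 0.29, edgeR adjusted p = 0.0566). Their groups did not overlap, but neither gene passed the test, and DESeq2 placed both past it (adjusted p = 0.00460 for Rdh5 and 0.0258 for Lrat). Rdh10 at 59.4, 46.8 and 47.8 CPM (log2 -0.40, SE 0.19, edgeR adjusted p = 0.124) and Rlbp1 at 639, 533 and 538 CPM (log2 -0.22, SE 0.16, edgeR adjusted p = 0.295) overlapped with vehicle, and the sign of Rlbp1 turned to 0.16 with the length and GC correction. Over the 9 genes, 7 had an unadjusted p below 0.05. The median log2 fold change was -0.22, beside -0.016 over all tested genes. With 4 positive and 5 negative values it is again that of Rlbp1.

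**Figure D2:**
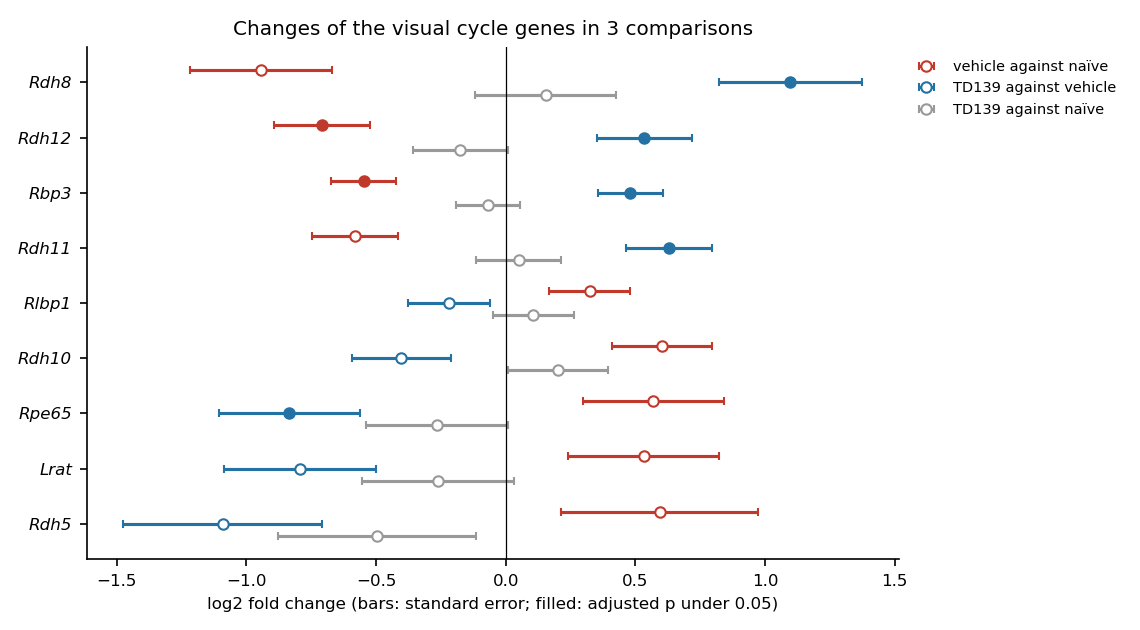
Log2 fold change (x axis) of the 9 visual cycle genes (y axis, photoreceptor genes first) for vehicle against naïve, TD139 against vehicle and TD139 against naïve mice, with bars for the standard error and filled points where the edgeR adjusted p was below 0.05. Rdh12 and Rbp3 are filled in the first comparison, Rdh8, Rdh12, Rbp3, Rdh11 and Rpe65 in the second and none in the third.

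These calls also depended on single mice. Rdh8, Rdh11 and Rbp3 stayed called in 6 of 9 fits that each left out 1 mouse, and lost the call without vehicle mouse 3, TD139 mouse 2 or TD139 mouse 3 (adjusted p up to 0.0720, 0.0770 and 0.0665). Rdh12 stayed called in 4 of 9, with an adjusted p of up to 0.159 without TD139 mouse 2, and lost the call without naïve mouse 2, vehicle mouse 1 or 3, or TD139 mouse 2 or 3. Rpe65 stayed called in 4 of 9, and had adjusted p of 0.0617 without naïve mouse 2, 0.119 without vehicle mouse 2, 0.0956 without vehicle mouse 3, 0.149 without TD139 mouse 2 and 0.117 without TD139 mouse 3. With the correction for length and GC content, Rpe65 was not called (log2 -0.65, adjusted p = 0.0757), while Lrat was (log2 -1.14, adjusted p = 0.0146). Rpe65 also lost its call with no filter on low counts (adjusted p = 0.0563) and from run 1 alone (adjusted p = 0.0539), and Rdh12 with scaling to library size alone (adjusted p = 0.05095) and with only the compared groups in the fit (adjusted p = 0.0582). Both lost it with replicate number as a block in the fit (adjusted p = 0.0534 for Rpe65 and 0.0605 for Rdh12). None of the 9 genes was called without TD139 mouse 2 or without TD139 mouse 3, 1 without vehicle mouse 3 and 3 without naïve mouse 2. Over all tested genes the calls went from 5072 with all mice to 1626, 1917, 2526 and 4285 in these fits. The log2 fold change of Rdh8 stayed between 0.97 and 1.29 in the 9 fits. For Rdh5 it lay between -1.354 and -0.706, and for Lrat between -0.966 and -0.538.

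**Figure D3:**
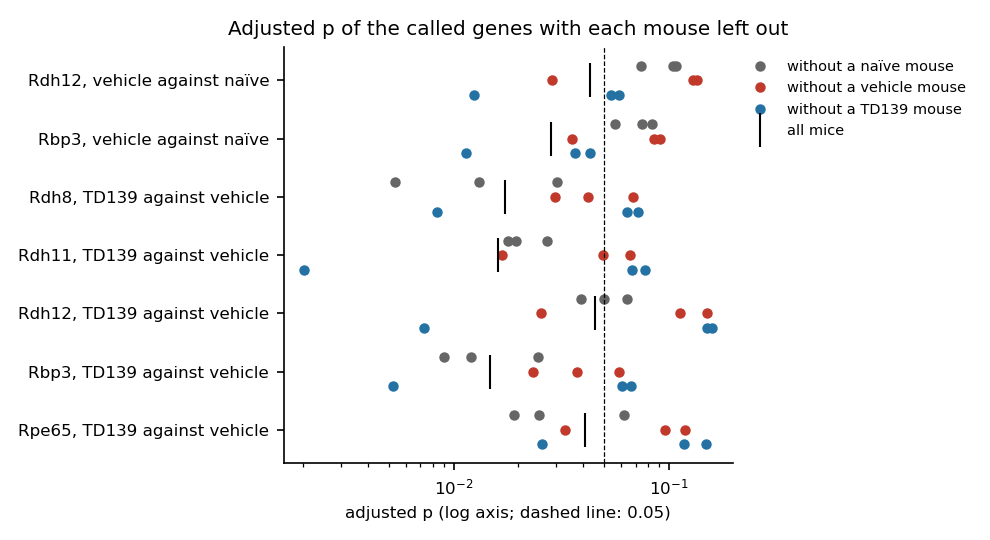
Adjusted p (x axis, log scale, dashed line at 0.05) of the 7 called changes of visual cycle genes (y axis) with all mice (vertical mark) and for fits that each lack 1 mouse (points, coloured by the group of the mouse). Each change has points on both sides of the line, and Rdh12 lies to the right of it in 7 of 9 fits for vehicle against naïve mice.

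Beside the rod markers, the photoreceptor genes were not all alike. The rod marker sum was 78712 to 98426 CPM in TD139 mice, just above the vehicle range of 55990 to 78627 CPM. Of 17 rod markers, 8 were called higher (47.1%, beside 17.2% of all tested genes), and the median log2 fold change of the 17 was 0.40. As a share of that sum, Rdh8 was 0.0784%, 0.0782% and 0.0794% in vehicle mice and 0.105%, 0.128% and 0.150% in TD139 mice, with no overlap. In naïve mice it ranged from 0.0584% to 0.140%. Rdh11 was 0.0420% to 0.0481% of the rod sum in vehicle mice and 0.0465% to 0.0584% in TD139 mice. The shares of Rdh11, Rbp3 and Rdh12 in vehicle and TD139 mice overlapped. That of Abca4, a retinoid gene described further on, did not, at 1.265% to 1.394% in vehicle and 1.563% to 1.766% in TD139 mice. The rod markers themselves also varied, from log2 -0.097 (Sag) to 1.36 (Rp1) with TD139 against vehicle. These shares were not tested.

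Rpe65, Lrat and Rdh5 were set beside markers of the pigment epithelium. The summed level of 20 such markers was 278 to 432 CPM in naïve, 369 to 714 CPM in vehicle and 246 to 356 CPM in TD139 mice. Of 19 tested, edgeR called 1 in vehicle against naïve mice, higher (5.26%, beside 4.91% of all genes), and 4 in TD139 against vehicle mice, all lower (21.1%, beside 16.2%). In TD139 against naïve mice edgeR called none, 2 had an unadjusted p below 0.05 and DESeq2 called 1, Krt18 (log2 -0.50, adjusted p = 0.0116). The medians of the 19 were 0.66, -0.73 and -0.30 on the log2 scale. The list was carried mainly by the keratin gene Krt18 (29.7% of its sum), the transthyretin gene Ttr (24.4%), the opsin gene Rgr (19.4%), the opsin gene Rrh (6.41%), the melanin enzyme gene Dct (5.07%) and the retinol-binding protein receptor gene Stra6 (4.10%). The chloride channel gene Best1, a defining marker, had 0 counts in 7 of 9 mice and 5 at most, and Tyr, the key enzyme of melanin synthesis, had 22 counts at most. Krt18, Rrh, Ttr and Slc16a8 were the 4 called lower, Krt18 had a log2 fold change of -0.04 in vehicle against naïve mice, and Ttr, Rgr, Rrh and Stra6 are also among the retinoid genes described further on.

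As a share of the pigment epithelium sum, Rpe65 was 8.50%, 4.91% and 5.69% in naïve mice, 5.59%, 5.95% and 8.94% in vehicle mice and 6.69%, 5.82% and 7.44% in TD139 mice. The 3 groups overlapped on this scale. Rdh5 was 4.47% to 7.03%, 5.45% to 6.85% and 5.36% to 5.62% of the sum, and Lrat was 1.29% to 3.44%, 2.24% to 2.45% and 2.08% to 2.90%, in naïve, vehicle and TD139 mice. Vehicle mouse 2 had the highest level of Rpe65, Lrat and Rdh5, the highest pigment epithelium sum (714 CPM) and the highest sum of 8 fibroblast markers of choroid and sclera (120 CPM, led by the collagen gene Col1a2 and the receptor gene Pdgfra and including Col6a3), where the other 8 mice had 19.1 to 37.4 CPM. Of the 7 fibroblast markers tested, 1 was called, lower with TD139 than with vehicle (14.3%, beside 16.2% of all tested genes). Without vehicle mouse 2, the log2 fold change of Rpe65 for TD139 against vehicle was -0.635. How far attached pigment epithelium contributed to the levels of these genes was not tested.

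**Figure D4:**
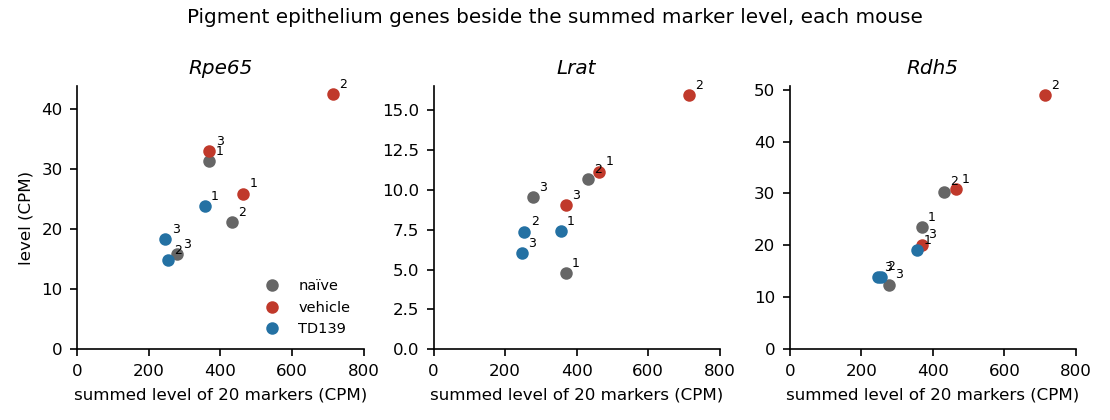
Level of Rpe65, Lrat and Rdh5 (y axes, CPM) against the summed level of 20 pigment epithelium markers (x axis, CPM) in each mouse (points, numbered 1 to 3 within naïve, vehicle and TD139). Vehicle mouse 2 has the highest sum, at 714 CPM, and the highest level of each gene.

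Rlbp1 and Rdh10 were set beside markers of Müller glia in the same way. Of 12 such markers, led by Glul, Clu and Dkk3, 7 rose in vehicle against naïve mice (58.3%, beside 4.91% of all tested genes). In TD139 against vehicle mice 5 fell (41.7%, beside 16.2%), and in TD139 against naïve mice 1 rose (8.33%, beside 2.72%). Medians of the 12 were 0.785, -0.465 and 0.28 on the log2 scale. Their sum was 5361 to 5485 CPM in naïve, 8699 to 9018 CPM in vehicle and 5303 to 7049 CPM in TD139 mice. Rlbp1, at 671, 448 and 469 CPM in naïve and 685, 582 and 721 CPM in vehicle mice, passed the test in neither comparison, and its share of the Müller sum was 8.17% to 12.2% in naïve, 6.51% to 8.0% in vehicle and 9.07% to 10.1% in TD139 mice. The vehicle shares lay below all others, although the log2 fold change of Rlbp1 itself was 0.32 in vehicle against naïve mice. The summed markers rose unequally there, from log2 0.138 (Abca8a) to 2.37 (Crym), with Glul at 0.165 and Clu at 1.43. The share therefore depends on the markers summed, and its difference was not tested. The share of Rdh10 overlapped between all groups, at 0.594% to 0.996%, 0.604% to 0.868% and 0.843% to 0.888%.

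The third comparison set TD139 mice beside naïve mice. None of the 9 genes was called by edgeR or DESeq2 and none had an unadjusted p below 0.05. Over all tested genes, 2.72% of genes rose, 2.38% fell and 32.2% did not overlap, against 0 of 9 genes here. The 775 genes called among all tested became 0 without naïve mouse 1 or 2, vehicle mouse 2 or TD139 mouse 2 or 3, and 2679 without naïve mouse 3. The log2 fold changes ran from -0.50 (Rdh5, SE 0.38) to 0.20 (Rdh10, SE 0.19), and the smallest unadjusted p was 0.226. For Rbp3 the difference was -0.07 (SE 0.12) and for Rdh8 it was 0.15 (SE 0.27). Rdh5 ran from -0.778 to -0.188 with 1 mouse left out. With 3 mice a group these values leave room for differences larger than their errors in either direction. The first 2 comparisons share the vehicle mice, and opposite signs in them are therefore not independent results.

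The overlap of annotations touches 2 of the genes. Rdh5 overlaps Bloc1s1 on the same strand, and Bloc1s1 was itself lower with TD139 (log2 -0.81, SE 0.15, edgeR adjusted p = 0.00623). Whether reads of the shared stretch were counted to either gene was not tested. Lrat lies within the antisense transcript Rbm46os, and the strand setting of the counting is not given in the sources used here.

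Other genes that handle retinoids were listed for comparison. Of 37, 36 were in the tables and 31 could be tested. With edgeR, 2 rose (6.45%) and 1 fell (3.23%) in vehicle against naïve mice, beside 4.91% and 2.89% of all tested genes. In TD139 against vehicle mice 1 rose (3.23%) and 7 fell (22.6%), beside 17.2% and 16.2%. Most of these shares were near those of all genes. The length and GC correction changed the balance to 2 higher and 5 lower in the first of these comparisons and to 3 higher and 2 lower in the second. In TD139 against naïve mice none was called by edgeR, 3 had an unadjusted p below 0.05 and DESeq2 called 2. The median log2 fold changes of the 31 were 0.155, -0.15 and -0.08. In vehicle against naïve mice, from 0 (without naïve mouse 1 or 2) to 7 (without TD139 mouse 1) were called when 1 mouse was left out, with 1 called without naïve mouse 3 or vehicle mouse 1 or 3. In TD139 against vehicle mice the count was 1 without TD139 mouse 2, 3 without TD139 mouse 3, 4 without vehicle mouse 3 and 5 without vehicle mouse 1.

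Abca4, the outer segment flippase that clears retinal from disc membranes, followed the photoreceptor genes. It had 1567, 1402 and 1293 CPM in naïve, 960, 1065 and 708 CPM in vehicle and 1230, 1665 and 1579 CPM in TD139 mice. Its log2 fold change was -0.64 (SE 0.16, edgeR adjusted p = 0.0377) and then 0.71 (SE 0.16, edgeR adjusted p = 0.01002), with no overlap in either. The fall lost its call without any naïve mouse, vehicle mouse 1 or 3 or TD139 mouse 3 (adjusted p up to 0.108), and the rise lost it without TD139 mouse 2 (adjusted p = 0.0505) and with the length and GC correction (log2 0.475, adjusted p = 0.0822).

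Rrh, the opsin peropsin of the pigment epithelium, had 22.6, 20.1 and 20.9 CPM in naïve, 34.6, 31.1 and 30.6 CPM in vehicle and 27.0, 18.0 and 18.5 CPM in TD139 mice. It was higher in vehicle (log2 0.60, SE 0.15, edgeR adjusted p = 0.0407) and lower with TD139 (log2 -0.60, SE 0.15, edgeR adjusted p = 0.0148). The rise lost its call without any 1 naïve or vehicle mouse, and the fall without TD139 mouse 2 or 3. Ttr, which carries retinol-binding protein, fell by 1.42 on the log2 scale (SE 0.46, edgeR adjusted p = 0.0491) and kept the call in 2 of 9 fits with 1 mouse left out, those without naïve mouse 2 or 3. Cyp26a1, which breaks down retinoic acid, fell by 1.77 (SE 0.58, edgeR adjusted p = 0.0484) and kept it in 1 of 9, the fit without TD139 mouse 1 (log2 -2.77). Its levels were 3.50, 5.92 and 7.15 CPM in naïve, 19.3, 16.7 and 25.7 CPM in vehicle and 12.01, 3.97 and 2.06 CPM in TD139 mice.

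The binding protein gene Crabp1, the reductase gene Dhrs4 and the retinoic acid receptor gene Rarg fell with TD139 by 0.73, 0.71 and 0.59 on the log2 scale (edgeR adjusted p of 0.0118, 0.0149 and 0.0211). Crabp1 lost its call without TD139 mouse 2, Dhrs4 without vehicle mouse 3 or TD139 mouse 2 or 3, and Rarg without vehicle mouse 1 or 3 or TD139 mouse 2 or 3. With the length and GC correction none of the 3 was called (log2 -0.10, -0.19 and -0.28), nor was Ttr (-1.02) or Cyp26a1 (-1.37). Per kilobase, the most abundant of the list were Abca4 at 176, Ttr at 79.5, the retinal reductase gene Dhrs3 at 59.2, the nuclear receptor gene Rxrb at 40.2, the retinal dehydrogenase gene Aldh1a1 at 32.8 and Degs1 at 27.8 CPM per kilobase. Dhrs3, Aldh1a1 and Degs1 were called in no comparison by edgeR or DESeq2, and Rxrb only by DESeq2 in TD139 against naïve mice (log2 -0.215, adjusted p = 0.0364, edgeR adjusted p = 0.1003).

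**Figure D5:**
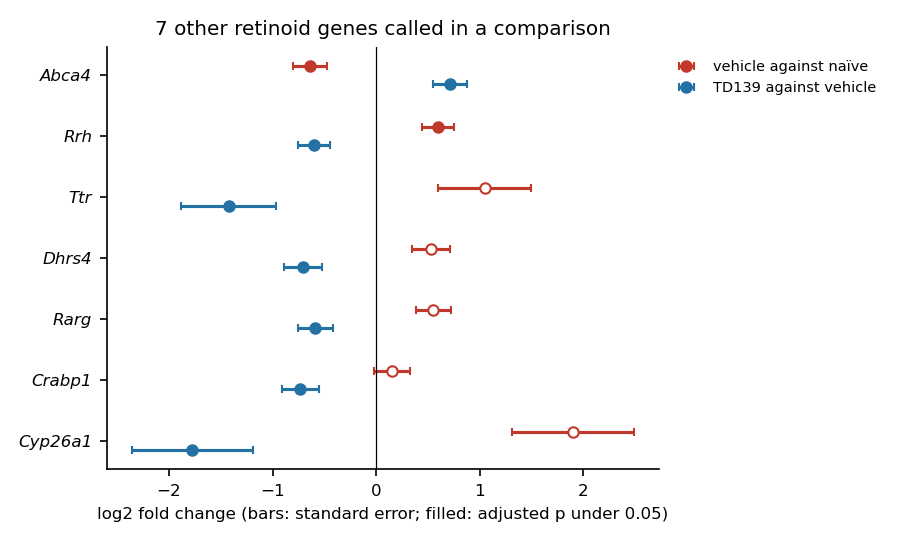
Log2 fold change (x axis) of 7 other retinoid genes called in a comparison (y axis) for vehicle against naïve and TD139 against vehicle mice, with bars for the standard error and filled points where the edgeR adjusted p was below 0.05. Abca4 moves against the other genes, with values of -0.64 and 0.71.

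For each of the 9 genes, the genes with the most similar pattern were found by Pearson r of log2 CPM over the 9 mice among 13093 genes, as a description in which all points share libraries and depth. Rdh5 was most like Rgr (0.98), Pon1 (0.98) and Hsd17b4 (0.98), and Rpe65 like Vkorc1 (0.97), Pfkm (0.97) and Mad2l2 (0.96). Lrat was most like Mboat7 (0.93), Anxa11 (0.91) and 5930403L14Rik (0.90), and Rdh10 like Tmem164, Sspn and Gprc5b (all 0.95). Rlbp1 was most like Tmem163 (0.995), Tfap2c (0.92) and Rgs19 (0.92). Rdh8 was most like Snrk (0.995), Ccnj (0.989) and Etv3 (0.989). Rdh11 was most like Ctr9, 9630033F20Rik and Icmt, Rdh12 like Wdr27, Plcd3 and Gucd1, and Rbp3 like Wdr59, 4932416H05Rik and Akna, all at 0.979 or above.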

How the data were processed

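Retinal RNA of 9 mice was sequenced as single reads from stranded mRNA libraries on a pair of flow cells. The authors deposited raw counts of reads per gene symbol, 1 file per mouse and run (18 files), made with a BaseSpace workflow on mm10 per the labels and the study's methods. The gene annotation and strand setting are not given in the sources used here. The 2 runs of each mouse were summed. Rows that name no gene were left out (no feature 16.5% to 22.8% and ambiguous 0.303% to 0.471% of counted reads). Members and lists were chosen with earlier results of these data known.

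Counts were tested with edgeR 4.0.16 (R 4.3.3): filterByExpr, TMM scaling, robust quasi-likelihood F test, 3 groups in 1 fit, Benjamini-Hochberg adjustment over 15196 genes, called at an adjusted p below 0.05. The SE is the fold change over the square root of F. CPM are TMM-scaled. DESeq2 1.42.0 was 1 of 10 alternatives besides leaving out each mouse. The fit was tested on simulated data. Replicates are individual mice with no pairing in the labels. With 3 against 3 mice an exact permutation test cannot go below p = 0.1. Named were all members, other retinoid genes called or among the 6 most abundant, the leading markers of each list, and per member the 3 genes most alike with a mean of at least 50 counts. Bloc1s1 and Rbm46os were named for their overlap and Slc16a8 as a called marker, outside this rule. Symbols were joined to GENCODE and RefSeq for 98.4% of genes. Limits from counts of 0 cover counting error only. Some genes that the rule names are not reported here.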

Additional observations from a re-analysis of the deposited data

How the results depend on the processing

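Of the 9 visual cycle genes, 2 were called in vehicle against naïve mice, 5 with DESeq2 and 1 with the replicate block, and from 0 to 4 with 1 mouse left out. In TD139 against vehicle mice 5 were called, with a range of 0 to 6 when 1 mouse was left out, and 4 to 7 under the other alternatives. In TD139 against naïve mice 0 were called under every alternative run, but with the replicate block and with the length and GC correction 0 of all tested genes were called, with only the compared groups 1, and without naïve mouse 1 or 2, vehicle mouse 2 or TD139 mouse 2 or 3 again 0, so 0 was fixed or nearly so there. Over all genes, calls in vehicle against naïve mice were 1185, with DESeq2 2418 and with the replicate block 900. Of the other retinoid genes, 3 were called in vehicle against naïve mice, 7 with DESeq2, 5 with only the compared groups in the fit, 7 with the correction for length and GC content (2 higher and 5 lower), and 0 to 7 with 1 mouse left out. In TD139 against vehicle mice 8 were called, 5 with the length and GC correction (3 higher and 2 lower) and 1 to 10 with 1 mouse left out. In TD139 against naïve mice 0 were called, 2 with DESeq2, 1 from run 2 alone and 0 to 1 with 1 mouse left out.

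The sign of the log2 fold change turned for Rlbp1 in TD139 against vehicle mice (0.156) and for Crabp1 in vehicle against naïve mice (-0.034) with the length and GC correction, and for Rdh11 in TD139 against naïve mice from run 1 alone (-0.06). With 1 mouse left out, values for TD139 against naïve mice ran from -0.466 to 0.044 for Rpe65, -0.077 to 0.407 for Rdh8, -0.059 to 0.222 for Rdh11, -0.257 to 0.00016 for Rdh12 and -0.12 to 0.05 for Rbp3, and Crabp1 ran from -0.016 to 0.292 in vehicle against naïve mice. The cause was not tested. Without scaling beyond library size, the median of all genes was 0.094 and -0.102 in the first 2 comparisons, and with the length and GC correction it was -0.101 and 0.076.

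Replicate numbers only name the mice. Mice with the same number correlated at -0.259 to 0.282 in their deviations from the group means and mice with other numbers at -0.281 to 0.226. With the replicate block Rdh12 had an adjusted p of 0.0598 and 0.0605 in the first 2 comparisons and Rpe65 0.0534, and Rdh5 was called (0.0206).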

Other observations

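Pearson correlations of log2 CPM over the 9 mice are given by cell layer of the cycle, as a description in which all points share libraries and groups. The opposite group differences given above enter these values, and Rdh11 was grouped with its values known, so their signs are not a separate result. The 6 pairs of photoreceptor genes, Rdh11 included, ran from 0.68 (Rdh8 with Rdh12) to 0.96 (Rdh11 with Rdh12, the neighbours on chromosome 12). All 20 pairs of a photoreceptor gene with a gene of the pigment epithelium or Müller glia were negative, 5 of them with Rdh11, which both layers make, from -0.86 (Rpe65 with Rdh8) to -0.25 (Lrat with Rdh8). The 10 pairs among the latter ran from -0.17 (Rlbp1 with Lrat) to 0.86 (Lrat with Rdh10), with Rpe65 and Rdh5 at 0.79.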
